A study of Homo sapiens with 9 samples.

Results

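Keratins are the intermediate filament proteins of epithelial cells, and the genes examined here were all protein-coding genes of the deposited table that are named KRT followed by a number, with a final letter allowed. There were 55 of them among 58735 genes, of which 19951 were protein-coding, and 11 keratin pseudogenes with the same form of name were left out by their biotype. The family was chosen by measured values, because KRT13 was seen to be higher, and KRT6A lower, between libraries labelled A20-KO and WT. The levels of these 2 genes, and every keratin value in that comparison, are therefore a description: no p-value is given for them, and nothing is drawn from how many were past the thresholds of the test. KRT6A in A20-OE against A20-KO reuses the same low libraries and is treated alike. Of the 55 genes, 29 code for type I and 26 for type II keratins.

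RNA-seq was performed in 9 libraries of HCT116, a human cell line established from a colorectal carcinoma. The groups, of 3 libraries each, were labelled A20-WT (wild type, WT), A20-KO (A20 knockout) and A20-OE (A20 overexpression). The Methods describe the last as HCT116 A20-KO-rescue cells, so the A20-OE cells carry the knockout too. A20 is the protein encoded by TNFAIP3, a ubiquitin-editing enzyme that restrains NF-kB signaling. The knockout was made with guide RNAs cloned into a LentiCRISPR lentiviral vector that also confers resistance to puromycin, and the overexpression vector drives Flag-tagged A20 from the CMV promoter. It is not stated which guide was used for these cells, nor whether each group is 1 clone. The labels do not say that the replicates came from separate cultures, so the p-values measure only the spread between these libraries, which may be technical.

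A keratin filament is built from heterodimers of 1 acidic type I keratin and 1 basic or neutral type II keratin, and cells usually express both types together. Simple epithelia such as that of the colon express KRT8 and KRT18 with KRT19 and KRT20. Stratified epithelia express KRT5 with KRT14 or KRT15 in the basal layer, KRT4 with KRT13 in the suprabasal layers of mucosa, and KRT6 with KRT16 or KRT17 in activated or wounded skin. A further group, the hair keratins, is known from the hair follicle. Keratin filaments are anchored to desmosomes between cells and to hemidesmosomes at the base of the cell.

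The table gives levels as FPKM (fragments relative to gene length and sequencing depth), from which the whole reads behind each value were recovered, 23406222 to 24963691 per library. TNFAIP3 had 109, 101 and 93 reads in WT, 237, 268 and 122 in those labelled A20-KO and 6935, 8338 and 6560 in A20-OE. The mRNA of the targeted gene was thus not lower in those labelled A20-KO, so its read counts do not show the knockout. The paper has a figure panel on how much A20 the knockout and rescue cells expressed, but its text gives no values. Within the sequencing data, each direction drawn from that group rests on its label. Mitochondrial genes took 7.52% to 10.1% of the reads in WT, 9.18% to 11.9% in those labelled A20-KO and 12% to 14% in A20-OE, and their part in the results was not tested. For the test, limma was fitted on log2(FPKM + 0.1) to the 21636 genes whose FPKM averaged 0.1 or more. Called genes had an adjusted p (Benjamini-Hochberg, all of these genes) under 0.05 together with a log2 fold change of more than 1 in size. Fold changes on this scale understate the change of genes with low values. Of the keratin genes, 28 passed this filter, 21 of type I and 7 of type II. KRT8 and KRT18, the defining pair of simple epithelium, had 19023 to 97962 reads in every library. In such bulk samples fewer cells with a keratin and less of its mRNA per cell cannot be told apart.

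The simple epithelial keratins made up most of the keratin mRNA. KRT19, a type I keratin with a very short tail, had 376, 395 and 530 FPKM in WT, 832, 759 and 1043 in those labelled A20-KO and 895, 775 and 1037 in A20-OE. Every library of the last 2 groups was above every WT library, and these 2 groups overlapped each other. The log2 fold change of KRT19 was 1.06 (SE 0.19) in A20-OE against WT (adjusted p = 0.00309 from limma) and 0.04 (SE 0.19) in A20-OE against A20-KO (adjusted p = 0.92 from limma). Without WT replicate 1 or A20-OE replicate 3 the value against WT was 0.97 or 0.96 and no longer past the fold threshold.

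KRT8, the type II keratin of simple epithelia, had 307, 352 and 468 FPKM in WT, 522, 482 and 611 in those labelled A20-KO and 524, 469 and 614 in A20-OE. The lowest A20-OE library was level with the highest WT library. In A20-OE against WT the log2 fold change of KRT8 was 0.52 (SE 0.19), which did not pass the test (adjusted p = 0.0595 from limma). That of KRT18, its type I partner, was 0.45 (SE 0.19) and did not pass either (adjusted p = 0.11 from limma). Over the other fits tried the adjusted p from limma ran from 0.0109 to 0.177 for KRT8 and from 0.006 to 0.299 for KRT18, with a log2 fold change under 1 in each. KRT18 had 19719, 19023 and 26148 reads in WT, 25659, 24555 and 33282 in those labelled A20-KO and 26732, 25086 and 31746 in A20-OE. For KRT8, KRT18 and KRT19 alike, replicate 3 was the highest library of its group in each of the 3 groups. KRT8 and KRT18 are neighbors on opposite strands of chromosome 12 with 525 exonic bases in common, and the sources used here do not say whether counting used strand.

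KRT7 and KRT20, the other keratins of simple epithelia, were much lower. KRT7, a type II keratin of ducts and glands that the normal colon hardly expresses, had 236, 276 and 391 reads in WT, 742, 659 and 661 in those labelled A20-KO and 2442, 1986 and 2560 in A20-OE. The 3 groups did not overlap, and A20-OE stood highest. KRT7 rose in A20-OE against A20-KO by a log2 fold change of 1.76 (SE 0.19, adjusted p = 0.00183 from limma), from 6.98 ± 0.457 to 24.1 ± 4.03 FPKM (SD, n = 3). KRT20, a type I keratin of differentiated intestinal epithelium, had 32, 40 and 36 reads in WT, 170, 192 and 162 in those labelled A20-KO and 152, 168 and 156 in A20-OE. It rose in A20-OE against WT (log2 fold change 2.08, SE 0.12, adjusted p = 1.07e-05 from limma), and differed by -0.11 (SE 0.12, adjusted p = 0.6 from limma) between A20-OE and A20-KO.

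**Figure D1:**
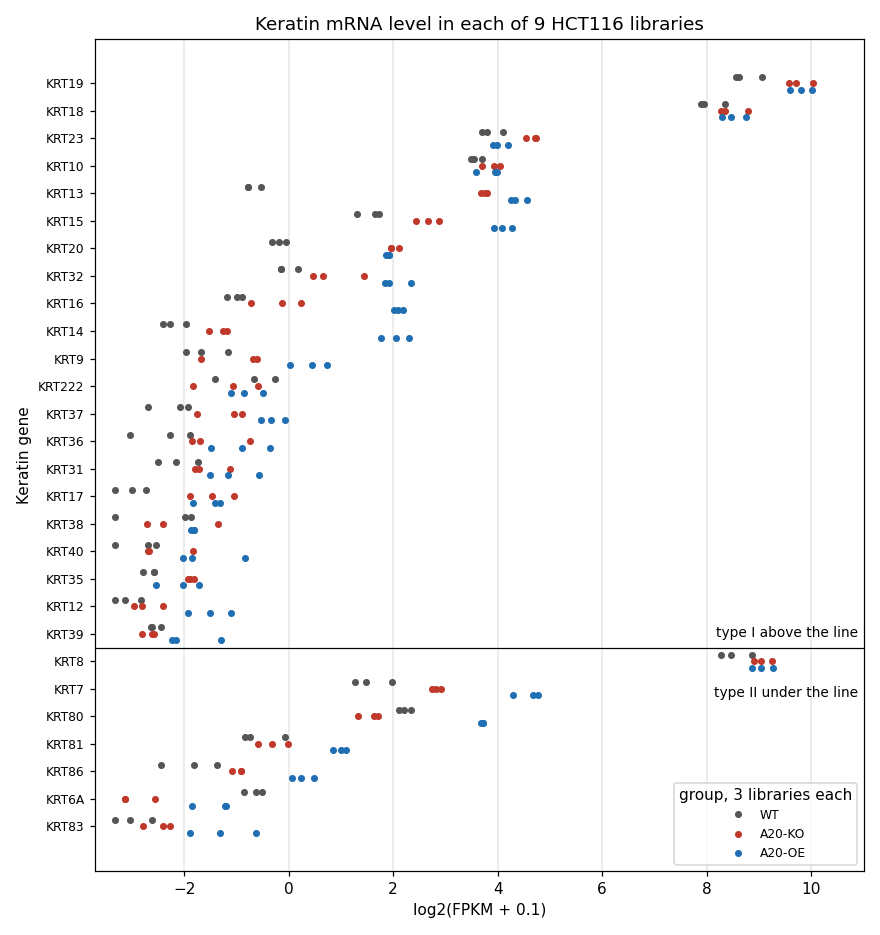
Level of the 28 keratin genes that passed the filter, as log2(FPKM + 0.1) on the horizontal axis, with 1 point per library and 3 libraries per group. KRT19, KRT8 and KRT18 stand far to the right in all 9 libraries, and the A20-OE points of KRT14, KRT16, KRT7 and KRT80 lie apart from those of both other groups.

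Among the type I keratins of stratified epithelia, KRT13, found in the suprabasal layers of mucosa, moved most in the comparison that chose it. KRT13 (ENSG00000171401, minus strand of chromosome 17, 41500981 to 41505705) gave 43, 35 and 35 reads in WT, 975, 913 and 909 in those labelled A20-KO and 1357, 1375 and 1569 in A20-OE. These are 0.519 ± 0.0658, 13.3 ± 0.516 and 20.8 ± 2.33 FPKM (SD, n = 3), and the 3 groups did not overlap. The log2 fold change was 4.44 in A20-KO against WT, the value that chose the gene, 5.08 in A20-OE against WT and 0.64 in A20-OE against A20-KO. An antisense gene, AC019349.1, shares 476 exonic bases with KRT13 and had 0 reads in all 9 libraries. KRT4, the usual type II partner of KRT13, had at most 8 reads in any library.

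KRT15 (ENSG00000171346), a type I keratin of basal cells, had 415, 541 and 568 reads in WT, 1078, 918 and 1192 in those labelled A20-KO and 2794, 2654 and 3130 in A20-OE. The groups were in this order without overlap. KRT15 rose in A20-OE against A20-KO (log2 fold change 1.44, SE 0.16, adjusted p = 0.00219 from limma) and in A20-OE against WT (2.53, SE 0.16, adjusted p = 1.42e-05 from limma).

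KRT14 and KRT16 had their groups in the same order, and whether their changes differed from that of KRT15 was not tested. KRT14 (ENSG00000186847, minus strand of chromosome 17, 41582279 to 41586921), the main type I keratin of the basal layer, had 6, 5 and 9 reads in WT, 19, 14 and 17 in those labelled A20-KO and 216, 187 and 253 in A20-OE. Its level was close to the limit of the depth in the first 2 groups and well above it in the third. KRT14 rose in A20-OE against A20-KO by a log2 fold change of 3.35 (SE 0.22, adjusted p = 0.000257 from limma), from 0.304 ± 0.0485 to 4.06 ± 0.762 FPKM (SD, n = 3). KRT16, known from hyperproliferative epidermis, had 21, 25 and 27 reads in WT, 49, 31 and 62 in those labelled A20-KO and 242, 242 and 254 in A20-OE. The groups did not overlap here either. KRT16 rose in A20-OE against A20-KO by 2.30 (SE 0.23, adjusted p = 0.0015 from limma).

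KRT17, a keratin of skin appendages and of wounded epidermis, had 0, 4 and 2 reads in WT, 29, 13 and 19 in those labelled A20-KO and 22, 14 and 20 in A20-OE. It lies next to KRT14 and KRT16 on chromosome 17, and its A20-OE and A20-KO libraries overlapped (log2 fold change -0.05, SE 0.36, adjusted p = 0.959 from limma), although the difference between the genes was not tested. KRT17 passed the filter through A20-KO and A20-OE alone, the groups where it was high. In A20-OE against WT it rose by 1.49 (SE 0.36, adjusted p = 0.0121 from limma). The ratio of its summed reads, scaled for depth, was 9.81 with a 95% interval of 4.24 to 27.9 (exact Clopper-Pearson), which covers counting error only.

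KRT9, a keratin of palm and sole epidermis, had 12, 9 and 20 reads in WT, 31, 12 and 28 in those labelled A20-KO and 49, 89 and 66 in A20-OE. It rose in A20-OE against WT (log2 fold change 2.0, SE 0.36, adjusted p = 0.00275 from limma). In A20-OE against A20-KO it passed narrowly (1.39, SE 0.36, adjusted p = 0.0451 from limma), and did not pass in 7 of the 9 fits without 1 library. KRT12, a keratin of the cornea, had 0, 1 and 3 reads in WT, 2, 3 and 6 in those labelled A20-KO and 11, 18 and 24 in A20-OE. The ratio of its summed reads in A20-OE against WT, scaled for depth, was 13.9 with a 95% interval of 5.13 to 53.0 (exact Clopper-Pearson), and it was called in this comparison (adjusted p = 0.0151 from limma). It passed the filter through A20-OE alone, the group where it was high. KRT10, the type I keratin of suprabasal epidermis, was called nowhere, with 594, 687 and 624 reads in WT, 790, 683 and 819 in those labelled A20-KO and 794, 636 and 758 in A20-OE (against WT, log2 fold change 0.27, SE 0.13, adjusted p = 0.17 from limma).

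The type II keratins of stratified epithelia were almost absent. KRT6A (ENSG00000205420, minus strand of chromosome 12, 52487174 to 52493257), known from wounded epidermis, was the only one to pass the filter, with 33, 44 and 40 reads in WT, 5, 1 and 1 in those labelled A20-KO and 23, 13 and 22 in A20-OE. The 3 groups did not overlap and A20-OE lay between the other 2. The value that chose it was a log2 fold change of -2.27 in A20-KO against WT. It was 1.52 in A20-OE against A20-KO and -0.76 in A20-OE against WT. KRT6B, whose transcript is 96.3% identical to that of KRT6A over 1928 aligned bases, had 4, 6 and 1 reads in WT, 0, 1 and 0 in those labelled A20-KO and 5, 4 and 5 in A20-OE. KRT6C had at most 2 reads in any library. KRT5, the usual type II partner of KRT14, had 13, 7 and 16 reads in WT, 10, 7 and 8 in those labelled A20-KO and 13, 3 and 9 in A20-OE, and its groups overlapped. With a mean of 0.0919 FPKM it lay just under the filter, while KRT39 lay just above it with 0.103 FPKM.

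Outside these classes, KRT80 moved most. KRT80 (ENSG00000167767, minus strand of chromosome 12, 52168996 to 52192000), a type II keratin found in many epithelia near cell junctions, had 458, 492 and 543 reads in WT, 318, 337 and 244 in those labelled A20-KO and 1322, 1416 and 1274 in A20-OE. Every library labelled A20-KO was below every WT library, and every A20-OE library was above both groups. The log2 fold change was -0.67 in A20-KO against WT, 2.15 (SE 0.12, adjusted p = 0.000113 from limma) in A20-OE against A20-KO and 1.48 (SE 0.12, adjusted p = 4.78e-05 from limma) in A20-OE against WT. KRT6A, which helped to choose the family, had its A20-KO and WT libraries in the same order. In this comparison the order is a description, and the share of all genes with such an order was not counted. KRT23, a type I keratin, had 1229, 937 and 995 reads in WT, 1849, 1658 and 1785 in those labelled A20-KO and 1068, 1076 and 1221 in A20-OE, and was highest in the middle group. It was lower in A20-OE than in A20-KO by less than the fold threshold (-0.63, SE 0.13, adjusted p = 0.0207 from limma). KRT222, a short keratin-like gene, had 58, 42 and 22, then 14, 44 and 28, then 27, 48 and 33 reads, and was called nowhere.

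The hair keratins were low in every library, and 11 of their 26 genes passed the filter. The type II hair keratins KRT81 and KRT86 rose in A20-OE against A20-KO. KRT81 had 22, 24 and 41 reads in WT, 33, 27 and 40 in those labelled A20-KO and 77, 91 and 91 in A20-OE (log2 fold change 1.29, SE 0.24, adjusted p = 0.0155 from limma). KRT86 had 5, 11 and 17, then 25, 22 and 24, then 53, 64 and 71 reads (1.23, SE 0.29, adjusted p = 0.0337 from limma). The A20-OE libraries of both genes lay above all others. These 2 genes cannot be fully told apart by short reads: of the 1185 windows of 150 bases in which their transcripts align without a gap, 38.5% hold no difference. KRT83, from which KRT81 differs in at least 2 bases of every such window, had 1, 0 and 3 reads in WT, 4, 5 and 2 in those labelled A20-KO and 24, 8 and 13 in A20-OE. The ratio of its summed reads in A20-OE against WT was 11.8 with a 95% interval of 4.31 to 45.3 (exact Clopper-Pearson), and it was called there (adjusted p = 0.0143 from limma), though not without A20-OE replicate 1 (adjusted p = 0.0515 from limma). It too passed the filter through A20-OE alone.

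Among the type I hair keratins, KRT32 was the most abundant, with 35, 45 and 35 reads in WT, 63, 55 and 107 in those labelled A20-KO and 150, 152 and 200 in A20-OE. Its groups did not overlap. KRT32 rose in A20-OE against A20-KO by 1.18 (SE 0.26, adjusted p = 0.0272 from limma) and in A20-OE against WT by 2.07 (SE 0.26, adjusted p = 0.000434 from limma). KRT36 had 1, 8 and 5 reads in WT, 8, 23 and 9 in those labelled A20-KO and 19, 12 and 29 in A20-OE, and was called in A20-OE against WT (1.48, SE 0.46, adjusted p = 0.0351 from limma), a call lost without WT replicate 1 or 3 or A20-OE replicate 1 or 3 (adjusted p = 0.066 to 0.118 from limma). KRT31 had 3, 8 and 5, then 14, 8 and 7, then 13, 10 and 21 reads, and KRT35 had 3, 2 and 3, then 7, 8 and 7, then 3, 9 and 6. KRT39 had 3, 4 and 3, then 3, 2 and 3, then 14, 6 and 5 reads, and KRT40 had 3, 4 and 0, then 3, 10 and 3, then 24, 8 and 9. These 4 genes were close to the limit of the depth and limma called them in no comparison.

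KRT37 and KRT38 are neighbors on the minus strand of chromosome 17 and close copies, with 93.6% identity over 1354 aligned bases and at least 1 difference in every window of 150 bases. KRT37 had 2, 5 and 6 reads in WT, 7, 14 and 15 in those labelled A20-KO and 24, 31 and 20 in A20-OE, and rose in A20-OE against WT (log2 fold change 1.92, SE 0.33, adjusted p = 0.00223 from limma). KRT38 had 10, 9 and 0, then 5, 3 and 16, then 10, 10 and 10 reads, a log2 fold change of 0.56 (SE 0.51, adjusted p = 0.453 from limma). Whether the 2 genes differed from each other was not tested. An antisense gene, AC003958.2, with 1 to 24 reads, shares 575 exonic bases with KRT37, so that reads of the 2 cannot be told apart without strand.

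The 250 bases before the RefSeq start of KRT37 (chr17:41424586-41424835 of GRCh38.p14, minus strand) and KRT38 (chr17:41440984-41441233, minus strand) are shown because these copies differ in only 2 of the 100 bases nearest the start. Those of KRT20 (chr17:40885243-40885492, minus strand) and KRT9 (chr17:41572060-41572309, minus strand) are shown as called members of other classes. They were chosen after their values were seen. Capitals mark matches to TATAAA (the TATA box), GGGCGG (the Sp1 motif) and GCCNNNGGC (an AP-2 motif) on either strand.
KRT37: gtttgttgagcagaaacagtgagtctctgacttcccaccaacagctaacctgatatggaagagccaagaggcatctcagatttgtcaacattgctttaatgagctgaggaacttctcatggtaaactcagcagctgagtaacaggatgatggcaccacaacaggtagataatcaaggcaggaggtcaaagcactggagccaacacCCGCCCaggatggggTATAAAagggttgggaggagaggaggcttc
KRT38: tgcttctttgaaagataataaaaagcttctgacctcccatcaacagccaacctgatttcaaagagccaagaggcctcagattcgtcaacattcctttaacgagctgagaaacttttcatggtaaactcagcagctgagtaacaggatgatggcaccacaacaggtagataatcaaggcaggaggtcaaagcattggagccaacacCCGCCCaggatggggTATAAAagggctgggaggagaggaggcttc
KRT20: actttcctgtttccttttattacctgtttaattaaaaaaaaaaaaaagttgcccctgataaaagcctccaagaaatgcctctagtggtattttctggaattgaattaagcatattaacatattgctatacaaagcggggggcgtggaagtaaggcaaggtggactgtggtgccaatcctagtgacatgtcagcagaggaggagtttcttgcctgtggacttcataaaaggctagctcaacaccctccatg
KRT9: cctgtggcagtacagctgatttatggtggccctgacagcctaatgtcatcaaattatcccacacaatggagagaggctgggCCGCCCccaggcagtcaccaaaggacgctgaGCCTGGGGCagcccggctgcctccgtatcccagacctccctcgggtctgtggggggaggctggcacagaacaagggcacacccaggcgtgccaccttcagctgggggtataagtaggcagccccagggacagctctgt

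Both copies hold TATAAA beginning 30 bases before the start and the Sp1 motif, on the other strand, beginning 45 bases before it. The KRT20 window holds none of the motifs searched. The table of RefSeq promoters held 34 of the 55 keratin genes, 13 of them among the genes tested. TATAAA was found in 20 of the 34 windows (58.8%), in 6 of the 13 of genes tested, and in 11.1% of all 27305 promoters of the table. GGGCGG was found in 4 windows (11.8%, against 42.3% of all promoters), GCCNNNGGC in 5 (14.7%, against 19.7%), the NF-kB motif in 2 (5.88%, against 9.57%), neither of them a gene tested, and TGANTCA, the AP-1 motif, in 0 (against 6.60%). A match is a description of these letters only. KRT1, KRT6A, KRT6B, KRT6C, KRT7, KRT13, KRT14, KRT15, KRT16, KRT17, KRT18, KRT19, KRT23, KRT72, KRT77, KRT78, KRT80, KRT81, KRT83, KRT86 and KRT222 were not in this table.

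Counted over the family, more keratins were called higher than lower. In A20-OE against A20-KO, limma called 9 of the 26 keratin genes other than KRT13 and KRT6A higher (34.6%; KRT14, KRT80, KRT16, KRT7, KRT15, KRT9, KRT81, KRT86 and KRT32) and 0 lower, where 1.56% of all genes tested were called higher and 0.832% lower. At an unadjusted p under 0.05, 1 keratin was lower, KRT23, and limma-voom on the recovered reads called 0 lower. By type, these were 4 of 6 type II genes and 5 of 20 type I genes. KRT6A, past the thresholds too but given as a description, makes 10 of the 28 tested. The median log2 fold change was 0.80 over the keratins tested (0.77 with groups at up to 3 reads per library set to 3 reads) and 0.01 over all genes. KRT12, KRT39, KRT40 and KRT83 are among the keratins tested but passed the filter only through A20-OE, and KRT6A helped to choose the family. Over the 20 keratins other than KRT13 with a mean of at least 0.1 FPKM in every group, which leave these out, the median was 0.72 and 9 were called higher. Of the 10 calls, those of KRT9, KRT86, KRT32, KRT81 and KRT6A were each lost in 4 to 7 of the 9 fits without 1 library, with 5 calls left without A20-OE replicate 1 or 3 and 6 without A20-OE replicate 2 or A20-KO replicate 1 or 2. The calls of KRT14, KRT16, KRT7, KRT15 and KRT80 held in all 9.

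In A20-OE against WT, 16 of the 26 keratins other than KRT13 and KRT6A were called higher (61.5%) and 0 lower, where the shares over all genes were 7.68% and 4.21%. Of these, 11 were type I and 5 type II. KRT13, a description because its WT libraries chose it, makes 17 of 28 past the thresholds. At an unadjusted p under 0.05, and by limma-voom, 0 of the 26 were lower. KRT6A, left aside because its WT libraries chose it too, had a log2 fold change of -0.76. The log2 fold changes of the 17 ran from 1.06 for KRT19 to 5.08 for KRT13, followed by 4.26 for KRT14, 3.12 for KRT16 and 3.01 for KRT7. The median over the keratins tested was 1.49 (1.40 with groups at up to 3 reads per library set to 3 reads) against 0.03 over all genes. Of the 20 keratins other than KRT13 with a mean of at least 0.1 FPKM in every group, 13 were called higher. KRT12, KRT17 and KRT83, which passed the filter only through groups where they were high, are not among these.

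In A20-KO against WT, the comparison that chose the family, KRT13, KRT20, KRT17, KRT7, KRT15 and KRT19 were past both thresholds upward and KRT6A downward. Over all genes 4.91% were higher and 2.08% lower, and nothing is read from the keratin count. The log2 fold changes ran from -2.27 for KRT6A and -0.67 for KRT80 to 2.19 for KRT20 and 4.44 for KRT13. The values of KRT15 and KRT19 were close to the fold threshold (1.09 and 1.02). Without WT replicate 1 or A20-KO replicate 3, and for KRT19 also without WT replicate 2, they were under it, at 0.96 and 0.89 at the lowest. Both comparisons with WT share its 3 libraries. Their log2 fold changes, A20-KO first and A20-OE second, were 1.24 and 3.01 for KRT7, 1.09 and 2.53 for KRT15, 0.90 and 4.26 for KRT14, and 2.19 and 2.08 for KRT20.

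**Figure D2:**
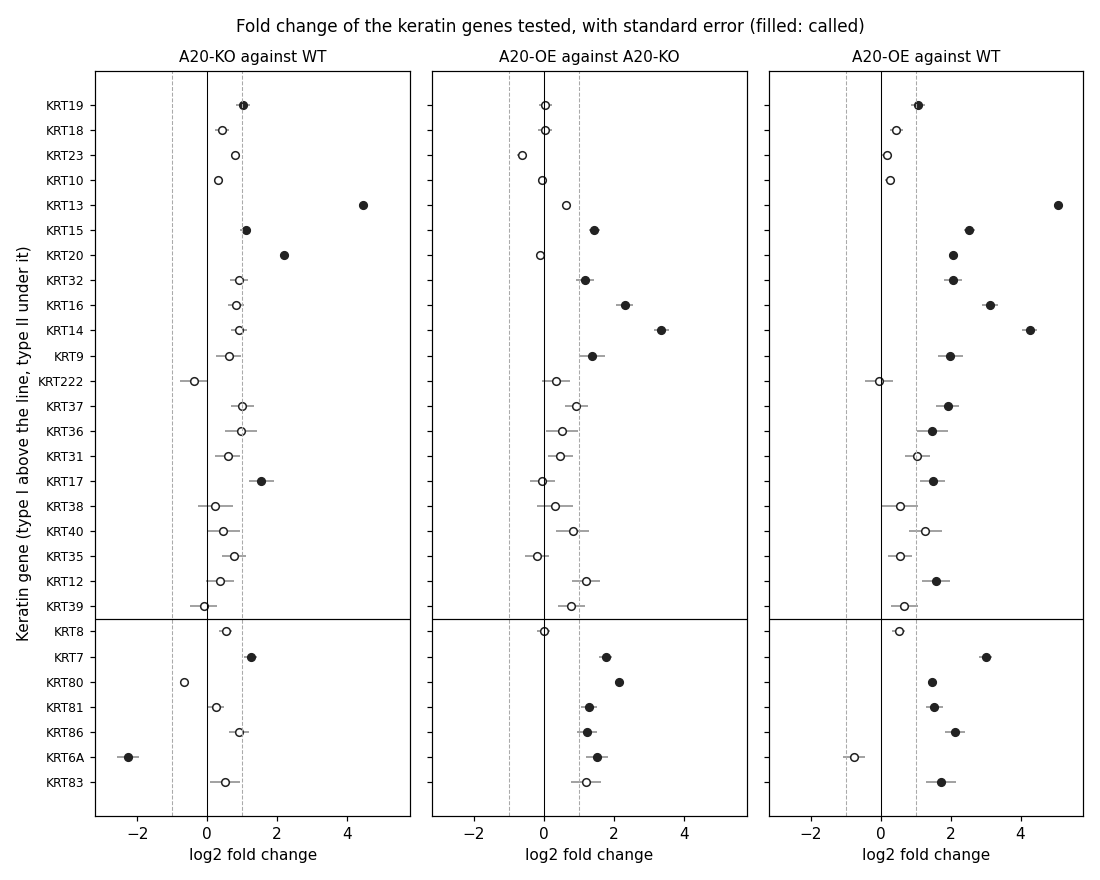
Log2 fold change of each keratin gene tested in the 3 comparisons, with its standard error as a bar. Filled points were called, dashed lines mark the fold threshold of 1, and in the middle panel 4 of 6 type II genes and 5 of 20 type I genes are filled on the right when KRT6A and KRT13, which chose the family, are left aside.

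Summed over all members, type I keratins came to 737 ± 130 FPKM (SD, n = 3) in WT, 1308 ± 224 in those labelled A20-KO and 1358 ± 199 in A20-OE. Type II keratins came to 385 ± 84.6, 550 ± 65.8 and 577 ± 77.3 FPKM. The ratio of type I to type II was 2.09, 1.84 and 1.85 in the WT libraries, 2.30, 2.30 and 2.51 in those labelled A20-KO and 2.36, 2.32 and 2.38 in A20-OE. No WT library reached the ratio of any other library. The size of this ratio depends on the gene lengths behind the FPKM, 6881 bases for KRT8, 2336 for KRT19 and 3218 for KRT18. In WT replicate 1, KRT8 had 52483 reads, KRT19 21812 and KRT18 19719, so an excess of type I is not seen in the reads of these genes. KRT19 alone was 58.8% ± 1.37, 67.2% ± 0.423 and 66.5% ± 0.354 (SD, n = 3) of the type I sum. All keratins together took 0.473%, 0.728% and 0.731% of the reads on average.

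The sums without the abundant simple keratins changed in another way. Type I keratins other than KRT18 and KRT19 summed to 33.5 ± 1.02 FPKM in WT, 69.0 ± 5.50 in those labelled A20-KO and 89.2 ± 9.58 in A20-OE (SD, n = 3). Type II keratins other than KRT8 summed to 9.17 ± 1.52, 11.3 ± 0.621 and 41.2 ± 4.27 FPKM (SD, n = 3). In the type II remainder the A20-OE libraries, with 42.7, 36.4 and 44.5 FPKM, were far from the 7.83 to 12 FPKM of the other 6. KRT8, KRT18 and KRT19 made up 96.1%, 95.6% and 93.2% of all keratin FPKM in the 3 groups. These sums were given no test, since the genes were chosen with results known.

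**Figure D3:**
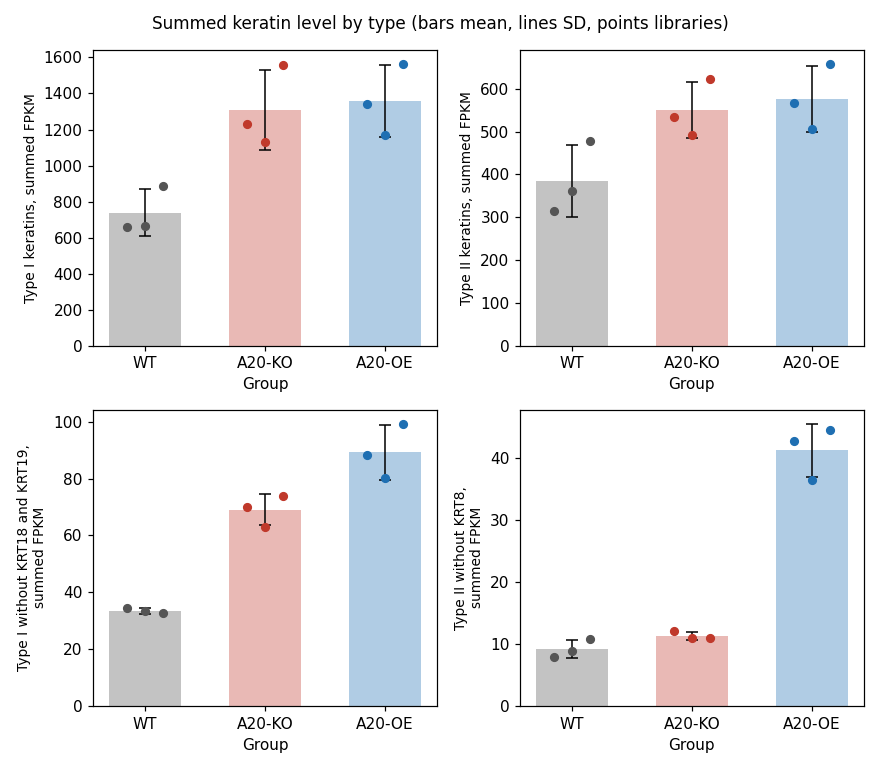
Summed FPKM of type I and type II keratins in each library, with all members in the upper panels and without KRT18 and KRT19 (type I) or KRT8 (type II) in the lower ones. Bars are the means of 3 libraries, lines the SD and points the libraries, and in the panel of type II without KRT8 the A20-KO points are near those of WT while all A20-OE points are at 36.4 FPKM or more.

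Most called genes stood in 2 runs along the chromosomes. All 26 type II genes and KRT18 are on chromosome 12 and the other 28 type I genes on chromosome 17, at the same coordinates as in GENCODE 29 on GRCh38. On chromosome 12 the 5 type II genes called in A20-OE against WT, KRT80, KRT7, KRT86, KRT81 and KRT83, are the first 5 keratin genes in order. From KRT85 to KRT78 only KRT6A passed the filter, and KRT8 and KRT18 close the cluster without a call. On chromosome 17 every gene from KRT32 to KRT17, in the order KRT32, KRT35, KRT36, KRT13, KRT15, KRT19, KRT9, KRT14, KRT16 and KRT17, passed the filter, and all but KRT35 were called higher in A20-OE against WT. At the other end, KRT24 to KRT28 were under the filter and KRT222 and KRT10 were not called. Neighboring genes can share sequence as well as position, and no test of the order was made.

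The remaining 27 members were under the filter. KRT2, KRT24, KRT26, KRT27 and KRT76 had 0 reads in all 9 libraries, which at this depth allows up to 3 reads in each. A further 14 had between 1 and 3 reads in their highest library: KRT1, KRT6C, KRT25, KRT28, KRT33A, KRT33B, KRT71, KRT72, KRT73, KRT75, KRT77, KRT79, KRT82 and KRT85. The other 8, KRT3, KRT4, KRT5, KRT6B, KRT34, KRT74, KRT78 and KRT84, had 4 to 16 reads in their highest library. KRT3 had 0, 3 and 2 reads in WT, 0 in each library labelled A20-KO and 6, 4 and 4 in A20-OE.

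Several members have pseudogenes that drew reads. The pseudogenes of KRT16 summed to 17, 15 and 15 reads in WT, 19, 29 and 59 in those labelled A20-KO and 131, 142 and 151 in A20-OE, between 38.8% and 95.2% of the reads of KRT16 itself. Their reads were thus highest where those of KRT16 were highest. KRT16P6, the main one, also aligns to KRT14 at 96.0% identity over 327 bases. The pseudogenes of KRT17 summed to 19, 34 and 22, then 43, 39 and 40, then 61, 41 and 66 reads, more than KRT17. KRT87P, which lies beside KRT81 and aligns to it at 93.2% identity, had 0, 2 and 0, then 0, 6 and 3, then 29, 14 and 14 reads. How reads were divided between these copies was not tested. Antisense genes share exonic bases with KRT7 (KRT7-AS, 282 bases, 0 to 46 reads) and KRT23 (AC004231.1, 186 bases, 1 to 23 reads), and TMEM99 shares 56 with KRT10, so that their reads cannot be told apart without strand. KRT14 and KRT16 themselves differ in most stretches, with 0.985% of 914 aligned windows of 150 bases holding no difference, and KRT17 differs from KRT14 in at least 6 bases of every window.

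The structures to which keratin filaments attach were looked at by list. The shares of all genes called higher were 4.91%, 1.56% and 7.68% in A20-KO against WT, A20-OE against A20-KO and A20-OE against WT, and 2.08%, 0.832% and 4.21% were called lower. Of 11 plakin and hemidesmosome genes, all tested, limma called 2 higher in A20-KO against WT (ITGB4 and PPL, 1 of them without WT replicate 1), 1 higher in A20-OE against A20-KO (LAMB3, with 2 calls without A20-KO replicate 1 or 2 or A20-OE replicate 3) and 4 higher in A20-OE against WT, with no gene called lower in any of the 3 by limma or limma-voom and 1, 1 and 0 lower at an unadjusted p under 0.05. ITGB4, the beta subunit of the hemidesmosome integrin, had 60.9 ± 11.9, 222 ± 2.83 and 300 ± 1.78 FPKM (SD, n = 3) in WT, A20-KO-labelled and A20-OE libraries, a log2 fold change of 2.32 (SE 0.14, adjusted p = 1.2e-05 from limma) in A20-OE against WT. LAMB3, a chain of laminin-332, the anchoring protein of the basement membrane, rose in A20-OE against A20-KO from 18.3 ± 0.268 to 49.5 ± 2.02 FPKM (SD, n = 3), by 1.43 (SE 0.12, adjusted p = 0.00072 from limma). COL17A1, a transmembrane collagen of the hemidesmosome, was called in A20-OE against WT (1.20, SE 0.15, adjusted p = 0.00047 from limma).

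Of 13 desmosome genes, 8 were tested and 0 were called in any comparison, by limma or by limma-voom. At an unadjusted p under 0.05, 2 were higher and 1 lower in A20-KO against WT, 4 higher and 0 lower in A20-OE against A20-KO, and 2 higher and 0 lower in A20-OE against WT, where leaving out WT replicate 2 or 3 or A20-OE replicate 2 gave 1 call. JUP, the plakoglobin of the desmosome plaque, had 71.6 ± 18.1, 115 ± 7.70 and 140 ± 10.6 FPKM (SD, n = 3), and its log2 fold change of 0.99 in A20-OE against WT (SE 0.17, adjusted p = 0.0023 from limma) stayed just under the fold threshold. DSP, which links the plaque to keratin filaments, had 29.8 ± 0.949, 30.3 ± 5.38 and 38.0 ± 5.97 FPKM (SD, n = 3). Of the desmosomal genes known from stratified epithelia, DSC3 had 375 to 707 reads in every library, while PKP1, DSG1, DSG3, DSG4 and DSC1 had at most 17.

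The products of squamous differentiation, which are known from stratified epithelia, ranged from absent to clearly expressed. Of 24 such genes, 9 were tested, among them KLK7 with 844 to 1988 reads per library, DMKN with 1945 to 3025 and CNFN with 58 to 164, and 11 had at most 3 reads in every library, 5 of them 0 throughout, IVL, LOR and CRNN among these. The 3 called higher in A20-KO against WT, where 4.91% of all genes were, were SBSN, KLK5 and KLK7. In A20-OE against A20-KO 0 were called by limma or limma-voom, and at an unadjusted p under 0.05 1 was higher and 2 lower. In A20-OE against WT, where 7.68% of all genes were called higher, 2 were. These were KLK5, a protease of the cornified layer (1.96, SE 0.23, adjusted p = 0.0003 from limma), and S100A7, which had 0 reads in each WT library and 3, 7 and 3 in A20-OE. Without WT replicate 2, A20-KO replicate 3, or A20-OE replicate 1 or 3, this count of 2 was 1.

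Of 22 transcription factors known in stratified and simple epithelia, 20 were tested. In A20-OE against A20-KO, KLF4, a factor of epithelial differentiation, was the 1 gene called (from 27.2 ± 2.15 to 64.5 ± 2.06 FPKM, SD, n = 3, log2 fold change 1.25, SE 0.13, adjusted p = 0.0019 from limma). In A20-OE against WT, 7 were called higher (GRHL3, KLF4, JUNB, OVOL1, TFAP2C, ELF3 and EHF) and 2 lower (OVOL2 and FOSL1), against 7.68% and 4.21% of all genes. GRHL3, a grainyhead factor of the epidermal barrier, had 112, 109 and 138 reads in WT, 544, 596 and 520 in those labelled A20-KO and 825, 926 and 912 in A20-OE (log2 fold change 2.87 against WT, SE 0.12, adjusted p = 2.1e-06 from limma). In A20-KO against WT, GRHL3, JUNB and OVOL1 were called higher and OVOL2 lower, 4 calls (against 4.91% higher and 2.08% lower over all genes) that were 2 without WT replicate 1. TP63, the factor that defines basal cells of stratified epithelia, had 1 to 9 reads per library.

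Of 15 other intermediate filament genes, 8 were tested. In A20-OE against WT 2 were called higher and 2 lower, where 7.68% and 4.21% of all genes were. DES, the muscle filament desmin, was called higher in A20-OE against WT (0.911 ± 0.301 to 5.61 ± 0.514 FPKM, SD, n = 3), and so was BFSP1, a filament of the lens. The nuclear lamins LMNB1 and LMNB2 were called lower, by -1.87 (SE 0.10, adjusted p = 6.9e-06 from limma) and -1.13 (SE 0.16, adjusted p = 0.001 from limma). In A20-KO against WT, DES and NES were called higher and LMNB1 lower. In A20-OE against A20-KO 0 were called by limma or limma-voom, with 1 higher and 2 lower at an unadjusted p under 0.05. VIM, the filament of mesenchymal cells, had 2 to 20 reads per library.

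**Figure D4:**
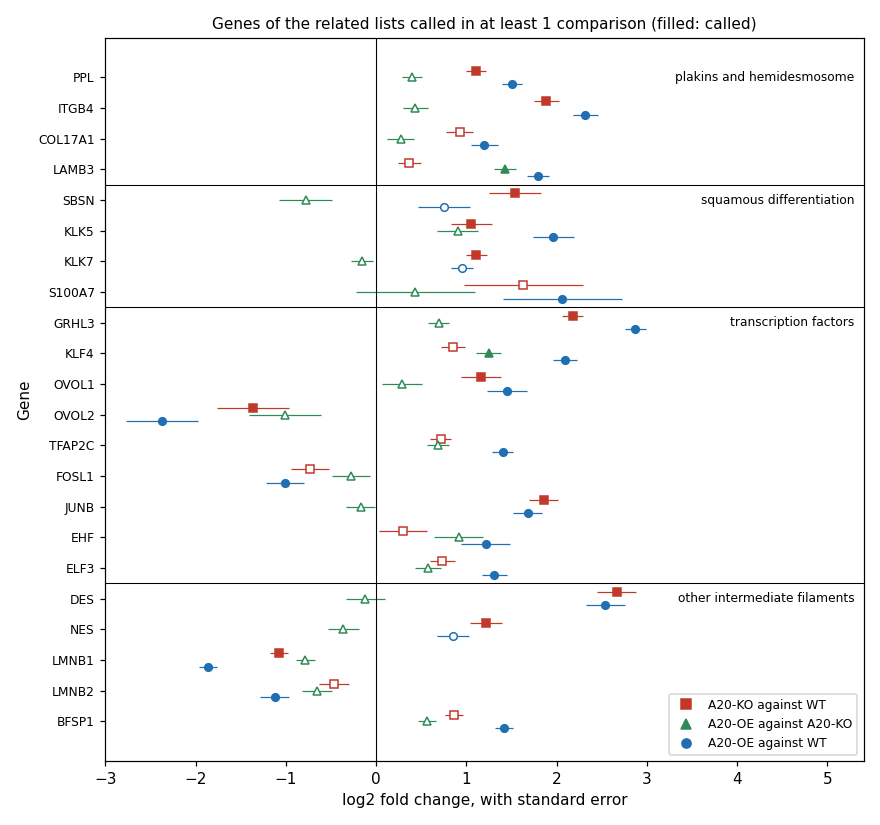
Log2 fold change, with standard error, of the genes of 4 related lists that were called in at least 1 of the 3 comparisons, filled where called. LAMB3 and KLF4 are the genes called in A20-OE against A20-KO, and OVOL2, FOSL1, LMNB1 and LMNB2 lie on the left.

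Markers of the cell types a culture could hold were looked at whole. Of 10 genes of colonic epithelium, 4 were tested and 0 called, with the summed level at 148 to 162 FPKM in WT, 143 to 146 in those labelled A20-KO and 129 to 151 in A20-OE, and by limma-voom 0 were called. CDX1, CEACAM5 and PHGR1 had at most 2 reads in any library, and VIL1, CDH17, GPA33 and LGALS4 at most 17, while EPCAM, CDH1 and CDX2 were expressed throughout. EPCAM alone made up most of the summed level, with means of 130, 117 and 105 FPKM in the 3 groups, so the sum says little about the low genes. At an unadjusted p under 0.05 CDH1 was higher in all 3 comparisons and EPCAM lower in A20-OE against WT. Of 6 fibroblast genes 1, COL1A1, was tested, while COL1A2, LUM and DCN had at most 4 reads. COL1A1 was called higher in A20-KO and in A20-OE against WT, as were 4.91% and 7.68% of all genes. The summed level of the list was 4.60 to 5.86 FPKM in WT, 12.6 to 15.1 in those labelled A20-KO and 11.1 to 12.3 in A20-OE. Nearly all of this was COL1A1, with means of 5.32, 13.3 and 11.7 FPKM. Of 6 leukocyte genes 2 were tested, and of these HLA-DRA was called higher in the same 2 comparisons. The summed level of the list was 3.43 to 4.39, 10.3 to 11.1 and 9.03 to 10.8 FPKM, and PTPRC, CD3E and CD68 had at most 5 reads. Most of this sum was HLA-DRA, with means of 3.40, 10.5 and 9.67 FPKM. Of 3 endothelial genes 1 was tested and 0 called by limma or limma-voom, also at an unadjusted p under 0.05. The part of the fibroblast and leukocyte genes in the keratin results was not tested.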

How the data were processed

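RNA of HCT116 cells was sequenced in 9 libraries, with 3 per group (WT, A20-KO and A20-OE). The authors aligned paired-end reads of 150 bp from poly-A RNA and counted them on genes, with HISAT2 (version 2.0.5) and featureCounts (version 1.5.0-p3) per the labels, and tested counts with DESeq2, per the Methods, which was not run here. They deposited FPKM per gene and a gene length; build and strand setting are not given in the sources used here. FPKM multiplied by length gave whole reads for 100% of the values (within 0.05 of a read). The deposited FPKM carry a scaling between libraries: the reads were 0.95 to 1.066 of the depth that the FPKM imply. Because FPKM are not counts, limma (version 3.58.1, in R 4.3.3) was fitted with a variance trend on log2(FPKM + 0.1) to all 3 groups at once, over genes with a mean of at least 0.1 FPKM. P-values were adjusted over all genes tested. The fit was checked on simulated reads. Intervals and floors (3 reads) cover counting error only, since PCR copies cannot be told from separate molecules. Gene positions came from GENCODE 29, promoters from RefSeq, and transcripts were compared with blastn (version 2.17.0+) and Biopython (version 1.88). Every keratin gene was to be accounted for, with values in every library for those that passed the filter, and in the other lists the called genes with the largest change, up to 4 a list, and abundant or defining members were named. Further genes of these lists were named after their values were seen. A gene of the hemidesmosome list is not reported here and was left out of its counts. The members and lists were chosen with earlier results of these data known. The alternatives tried were other pseudocounts, filters, scalings, thresholds and tests, the replicate block and each library left out.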

Additional observations from a re-analysis of the deposited data

How the results depend on the processing

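Counts of calls depended on the processing. Over up to 19 other fits per gene, 0 keratin values with an adjusted p under 0.05 from limma changed sign. In A20-KO against WT, where the count is a description, 7 genes past the thresholds became 4 with a pseudocount of 1, 12 with no fold threshold and 3 with a log2 fold change above 2, and 5 to 10 with 1 library left out. In A20-OE against A20-KO the 10 calls became 5 with a pseudocount of 1 and 3 at the higher fold threshold, and 5 to 10 with 1 library left out. In A20-OE against WT the 17 became 9, 10 with a mean of at least 1 FPKM, and 8 at the higher fold threshold, and 15 to 18 with 1 library left out. Fewer genes enter with the higher filter, and a higher pseudocount lowers the fold change of low genes. With limma-voom on the recovered reads the counts were 8, 11 and 19. The 19 in A20-OE against WT were 18 higher and 1 lower, KRT6A, which is a description since its WT libraries chose it. Same-numbered libraries of different groups correlated by -0.12 to 0.33, over 0.1 in 4 of 9 pairs. The mean was 0.12 for same-numbered and -0.059 for different-numbered pairs. Whether the numbers pair the libraries was not tested, and the main fit used no pairing. A replicate block in the fit gave 8, 10 and 17. Summed levels moved by less than 1 SD under both scalings. One scaling had the same factor, 1.01, in every library, so it could not change how the groups compare. The ratio of type I to type II cannot change under any factor per library, so its stability tells nothing. Leaving out 1 of 3 libraries could not move a mean by 1 SD. For the other lists these alternatives were chosen after seeing the data. The transcription factors in A20-KO against WT went from 4 calls to 2 with a pseudocount of 1 (2 to 4 with 1 library left out), the squamous genes from 3 to 1 with it and in A20-OE against WT from 2 to 1 with it, with no filter and with the higher filter (1 to 2 with 1 library left out). The hemidesmosome genes in A20-KO against WT had 1 to 3 calls with 1 library left out and in A20-OE against A20-KO 1 to 2, the desmosome genes in A20-OE against WT 0 to 1, and the colon genes 1 with no filter. Depth limits the members under about 10 reads.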
